A study of Mus musculus with 4 samples.

Results

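The array of PCBs, which are cardioblasts induced with CsAYTE, was compared with the array of sfPCBs, which had formed spontaneously without CsAYTE, both at day 5.5 of differentiation. These are 2 of the 4 arrays in the study, taken by their titles, with 1 array each. Both populations came from mouse embryonic stem cells that were differentiated without leukemia inhibitory factor. According to the methods, Flk1+ mesodermal precursor cells (Flk1+ MPCs) were sorted and then given CsAYTE or its vehicle, DMSO, at each change of medium. CsAYTE combines 4 modulators, namely Cyclosporin A, a ligand of cyclophilins that inhibits calcineurin and the mitochondrial permeability transition pore, Y27632, an inhibitor of the kinase ROCK, Trolox, an antioxidant analog of vitamin E, and EW7197, an inhibitor of the TGF-beta type I receptor ALK5. The other arrays held Flk1+ MPCs at day 4.5, before any CsAYTE, and M+CMs, cardiomyocytes with an active αMHC promoter, at day 10.5. The array label of the M+CMs does not name CsAYTE, but the study uses this name for αMHC-GFP+ cells grown from PCBs, so they too stem from CsAYTE-induced cells. EMG7 stem cells carry GFP under the αMHC promoter. The methods name OP9 stromal feeder cells and gelatin as substrates for this step and EMG7 and E14Tg2a as stem cell lines. Which of them each array came from is not stated in the sources used here. The paper does report that CsAYTE yielded mouse PCBs on OP9 cells and not without feeders. Of these lines, it gives the αMHC-GFP gene, by which M+CMs are named, for EMG7 only. Whether the day 5.5 cells were sorted before RNA extraction is not given.

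Heart muscle forms from mesoderm that leaves the primitive streak, passes through a cardiovascular precursor state shared with endothelial and smooth muscle cells, and then switches on transcription factors such as Nkx2-5, Tbx5 and Mef2c together with the genes of the sarcomere. The sarcomere is the contractile unit of striated muscle, built of actin thin filaments, myosin thick filaments, titin and the proteins of the Z-disc. TGF-beta and Nodal signaling through ALK4 and ALK5 patterns the early mesoderm, and TGF-beta later promotes matrix production and the mesenchymal state.

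The arrays were 1-colour Agilent gene expression arrays, all on 1 slide. A level is the background-subtracted spot intensity of the probe after each array was scaled to the same 75th percentile, here called the signal. A signal has no meaning between different probes, so levels were compared only for the same probe across arrays. The log2 ratio is that of PCBs over sfPCBs, so positive values are higher in PCBs. Its error was derived from the scanner software's spot errors and covers the spots and their background only. With 1 array per population there was no measure of the spread between cultures, no test was possible, and every difference given here is a difference between these 2 arrays. Genes were counted as higher or lower at a ratio of at least 2, or at least 4 where stated.

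Of the 20885 genes with a symbol on the array, 16811 were detected (well above background) in PCBs or sfPCBs and were compared. Both arrays detected 15643 of them, PCBs alone 591 and sfPCBs alone 577. The median log2 ratio was 0.004, with quartiles of -0.329 and 0.291, and 85.0% of genes lay within 2-fold. By at least 2-fold, 1026 genes (6.10%) stood higher in PCBs, and 1504 (8.95%) stood lower. Counts in the gene lists below are to be read against these shares. A 4-fold limit left 378 genes (2.25%) higher and 543 (3.23%) lower. Among the 15643 genes detected in both arrays, the same counts were 699 (4.47%) and 1141 (7.29%) at 2-fold and 229 (1.46%) and 336 (2.15%) at 4-fold. The median error was 0.204 for genes detected in both arrays and 0.521 for genes detected in only 1. In the dimmer array a gene can lie at background, and such a ratio is given as a bound, against the higher of that probe's own signal and the lowest signal called well above background. Bounds hold for this handling of the background only. Of the 20 genes with the largest bounds, 10 each way, 20 had a ratio below their bound under normexp background correction. Normexp models the background of the spots and was run with an added offset of 50, which every value given under normexp includes. With an offset of 50 on the signal alone, 20 of the 20 were also below their bound.

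**Figure D1:**
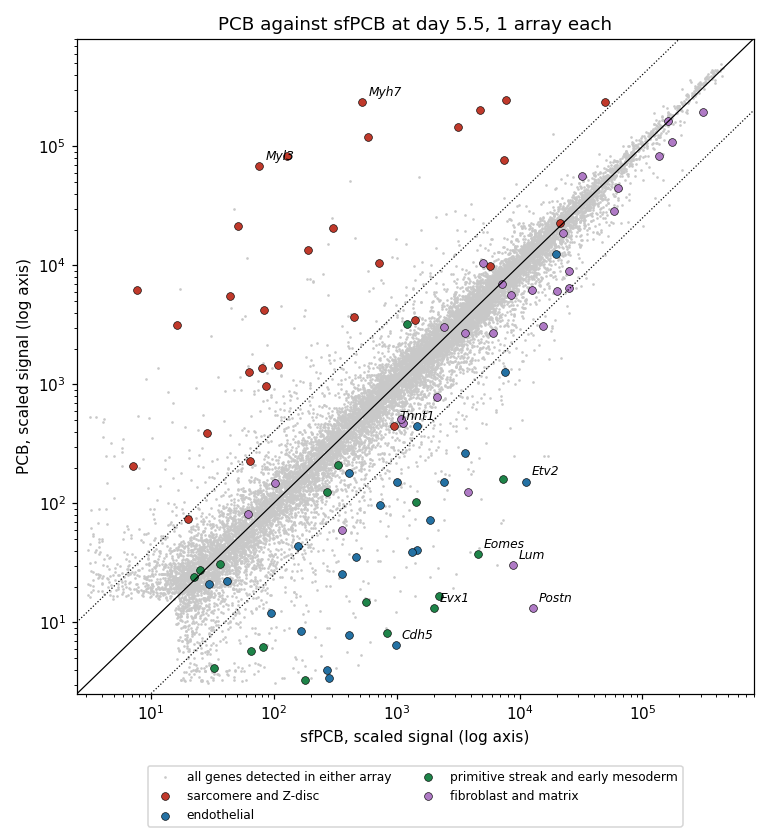
Scaled signal of each gene in sfPCBs (x axis, log scale) and PCBs (y axis, log scale), 1 array each, with the 16811 compared genes in gray and members of 4 gene lists in colour. The solid line marks equal signal and the dotted lines a 4-fold difference. Of the sarcomere genes 24 lie above the upper dotted line, and of the endothelial and the primitive streak genes 17 and 11 lie below the lower one.

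Genes of the sarcomere had the highest median ratio among the 35 gene lists examined. Of 30 detected members of a list of sarcomere and Z-disc genes, 27 were at least 2-fold higher in PCBs (90% of the list, against 6.10% of all genes compared), 24 were at least 4-fold higher, and 1 was lower. The median log2 ratio of the list was 4.58. The summed signal of the list was 106232 in Flk1+ MPCs, 106420 in the sfPCBs, 1542739 in the PCBs and 4784206 in M+CMs. Bright probes weigh most in such a sum. The largest members of the Flk1+ MPC and sfPCB sums were Tpm1 (50428 and 49900) and Synpo2l (31921 and 21467). Their near equality therefore does not show that each member was level between these 2 arrays. Actc1 was level (4786 and 4733), but Tnnt2 had 150 and 3176, Tnni1 190 and 7549, and Myl7 6095 and 588. In RNA of a whole population, fewer cells that express a gene and less of its RNA per cell cannot be told apart.

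Among thick filament genes, Myl3, which encodes a ventricular essential myosin light chain, had a signal of 92.2 in Flk1+ MPCs, 76.2 in the sfPCBs, 68633 in the PCBs and 397276 in M+CMs, with a log2 ratio of 9.81 (error 0.21). It was the largest ratio among genes detected in both arrays. The cardiac alpha myosin heavy chain Myh6 had 116 in Flk1+ MPCs, 128 in the sfPCBs, 82857 in the PCBs and 478627 in M+CMs (log2 ratio 9.34, error 0.21), and a separate probe for it, at background in sfPCBs, was at least 30.2-fold higher in PCBs. Myh7, the beta heavy chain that dominates in the embryonic ventricle, had 122, 526, 235857 and 228990 in the same order (log2 ratio 8.81, error 0.20). In contrast to Myh6, its signal in PCBs was close to that in M+CMs. The regulatory light chain Myl7, an early atrial-type marker, was at 6095 in Flk1+ MPCs, 588 in sfPCBs against 119771 in PCBs (log2 ratio 7.67, error 0.20). Its sfPCB signal was thus below that of the precursors. Mybpc3, cardiac myosin-binding protein C, had a signal of 51.3 in sfPCBs against 21228 in PCBs (log2 ratio 8.69, error 0.23). The ventricular Myl2 was not well above background in sfPCBs, had 3150 in PCBs and 113949 in M+CMs, and was at least 191-fold higher in PCBs, with a log2 ratio of 5.50 under normexp. Myl1, a light chain of fast skeletal and embryonic muscle, was likewise not well above background in sfPCBs and was at least 412-fold higher in PCBs, where its signal was 6242, with 6.02 under normexp. Myh8, a heavy chain otherwise known from skeletal muscle, and the heavy chain gene Myh7b had log2 ratios of 9.29 and 7.56. The other Myh8 probe, at background in sfPCBs, was at least 10.3-fold higher in PCBs. Sequences of myosin heavy chain genes are similar, and how far their probes cross-react is not known here.

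Thin filament genes were higher in PCBs as well. Tnnt2, cardiac troponin T, had a signal of 150 in Flk1+ MPCs, 3176 in the sfPCBs, 145595 in the PCBs and 403180 in M+CMs (log2 ratio 5.52, error 0.20). Here the sfPCBs stood above the precursors, and the PCBs stood above both. Actc1, cardiac alpha actin, was at 4786, 4733, 203317 and 598466 in the same order (log2 ratio 5.42, error 0.20). Tnnc1, the calcium-binding troponin C of cardiac and slow muscle, had 304 in sfPCBs against 20652 in PCBs (log2 ratio 6.09, error 0.20). The slow skeletal troponin I gene Tnni1, which is the isoform of the embryonic heart, had 7549 and 76570 (log2 ratio 3.34), whereas Tnni3, the isoform of the mature heart, had 64.1 and 228 (log2 ratio 1.83) and reached 105985 in M+CMs. Tpm1 differed between its probes, with a log2 ratio of 2.23 for the brightest and of 0.38, -0.36 and -1.48 for probes of other transcript variants. Acta1, skeletal alpha actin, stayed within 2-fold (log2 ratio 0.78), as did the Z-disc gene Synpo2l (0.09). The slow skeletal troponin T gene Tnnt1 was the only member lower in PCBs, with 950 in sfPCBs against 444 in PCBs (log2 ratio -1.10), although it was at 54860 in M+CMs.

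Among giant and Z-disc proteins, Ttn (titin) had a signal of 192 in sfPCBs against 13455 in PCBs (log2 ratio 6.13, error 0.21). Of its further probes 2 gave 5.17 and 5.92, and the third, at background in sfPCBs, was at least 133-fold higher in PCBs. Ldb3, a Z-disc protein also called Cypher, had 44.3 and 5557 (log2 ratio 6.97, error 0.24), but its other probe gave 1.66. Actn2, Csrp3, Tcap and Xirp1, all of the Z-disc or its attachments, had log2 ratios of 3.50, 3.74, 4.10 and 4.33. The myosin chaperone Unc45b (3.85), the small heat shock protein Hspb7 (3.77) and the intermediate filament gene Des (3.03) were higher as well. Lmod2 and Myoz2 were not well above background in either array. Among 4-fold higher genes outside the list, Asb2 (log2 ratio 8.50), a ubiquitin ligase subunit of muscle, Rbm24 (6.38), a muscle splicing regulator, and Fbxl22 (6.59), an F-box protein of the Z-disc, belonged to the 15 largest ratios.

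The promoters of 6 of these genes are shown because these genes differed together and hold an element known from muscle promoters close to the start site, by which they were chosen. The windows come from RefSeq (GRCm38.p6), run 5′ to 3′ on the strand of the gene and end at the base before the start site. Capitals mark a CArG box, the element bound by serum response factor (SRF), in the first 4 sequences and a MEF2 element in the last 2.

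Actc1, chr2:114052876-114053075, minus strand: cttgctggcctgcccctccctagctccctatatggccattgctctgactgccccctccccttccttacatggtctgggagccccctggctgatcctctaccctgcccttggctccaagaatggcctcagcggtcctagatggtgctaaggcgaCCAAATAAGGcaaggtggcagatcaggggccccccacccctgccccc
Myl3, chr9:110763478-110763677, plus strand: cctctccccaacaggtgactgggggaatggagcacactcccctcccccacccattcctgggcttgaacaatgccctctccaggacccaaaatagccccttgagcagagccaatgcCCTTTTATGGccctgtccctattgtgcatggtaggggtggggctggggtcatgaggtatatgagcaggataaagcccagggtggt
Myl7, chr11:5898783-5898982, minus strand: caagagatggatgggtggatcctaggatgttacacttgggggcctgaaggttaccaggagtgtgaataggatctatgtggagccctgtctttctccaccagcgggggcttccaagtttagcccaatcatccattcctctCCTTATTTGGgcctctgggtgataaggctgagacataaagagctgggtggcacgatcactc
Ldb3, chr14:34588682-34588881, minus strand: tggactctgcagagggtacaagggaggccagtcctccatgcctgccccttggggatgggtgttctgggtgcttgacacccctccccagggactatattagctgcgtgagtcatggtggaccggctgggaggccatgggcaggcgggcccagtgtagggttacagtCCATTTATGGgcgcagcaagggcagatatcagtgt
Mybpc3, chr2:91117944-91118143, plus strand: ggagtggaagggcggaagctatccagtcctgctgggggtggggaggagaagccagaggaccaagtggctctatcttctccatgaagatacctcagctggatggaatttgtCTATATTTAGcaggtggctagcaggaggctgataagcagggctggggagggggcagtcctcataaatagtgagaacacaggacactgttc
Ttn, chr2:76982548-76982747, minus strand: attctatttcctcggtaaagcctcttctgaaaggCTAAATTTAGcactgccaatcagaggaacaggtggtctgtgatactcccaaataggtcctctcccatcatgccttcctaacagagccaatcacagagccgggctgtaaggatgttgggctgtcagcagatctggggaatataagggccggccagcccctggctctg

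The boxes began 47, 85, 61 and 35 bases before the start sites of Actc1, Myl3, Myl7 and Ldb3, and the MEF2 elements 90 and 166 bases before those of Mybpc3 and Ttn. In windows of 300 bases, from 250 before to 50 after the start, a CArG box was found in 8 of 39 windows of the sarcomere list (20.5%), in 3.45% of 377 windows of genes at least 4-fold higher in PCBs, in 1.26% of 477 windows of genes at least 4-fold lower, and in 1.48% of the 16658 windows of all genes compared. A MEF2 element was in 10.3%, 2.65%, 0.21% and 0.438% of the same sets. The sets overlap, since sarcomere genes at least 4-fold higher in PCBs are in both. The 8 windows with a CArG box belong to 7 genes, as the same Ldb3 box lies in overlapping windows. Members without a 2-fold difference also held an element, namely Acta1 (CArG box, log2 ratio 0.78) and Synpo2l (MEF2, 0.09). So did Myoz2 (MEF2), which was not well above background in either array. The CArG box and MEF2 were 2 of 7 motifs searched. Among the others, an NKX2-5 motif (AAGTGG) was in 15.4% of the windows of the sarcomere list and 16.7% of those of all genes compared, a GATA motif (AGATAA) in 12.8% and 7.85%, a TATA motif (TATAAA) in 17.9% and 9.40%, a TEAD motif (GGAATG) in 30.8% and 13.1%, and a SMAD motif (CAGACA) in 28.2% and 17.3%. Each pattern was searched on both strands, and a match is a description of letters, not a binding site. The levels of the factors themselves differed unequally. Srf had a signal of 9491 in sfPCBs against 16636 in PCBs (log2 ratio 0.81), and its other probe gave 1.15. Mef2a had 3928 and 3908 (-0.01), and Mef2c had 201 and 1616 (3.01).

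Cardiac transcription factors split into groups. Of 26 listed, 10 were at least 2-fold higher in PCBs (38.5%), 4 were lower (15.4%) and 12 lay within 2-fold, with a median log2 ratio of 0.66. Of all genes compared, 6.10% were higher and 8.95% lower. Nkx2-5, a homeodomain factor of the heart field, had a signal of 657 in Flk1+ MPCs, 591 in the sfPCBs, 9016 in the PCBs and 47780 in M+CMs (log2 ratio 3.93, error 0.20). Its sfPCB level was close to that of the precursors. Myocd, the coactivator of SRF, had 156, 984, 16719 and 13450 in the same order (log2 ratio 4.09, error 0.20). Tbx5, a T-box factor of the first heart field, had 687, 396, 2759 and 30265 (log2 ratio 2.80, error 0.20). Isl1, a marker of the second heart field, was at 1641 in sfPCBs against 7023 in PCBs (log2 ratio 2.10), and Smarcd3, the cardiac BAF60c subunit of the SWI/SNF remodeling complex, at 4018 and 32612 (3.02). Hopx (3.04) and Meis1 (1.66) were also higher. Gata4, Hand2, Tbx20 and Gata5 lay within 2-fold, with log2 ratios of 0.38, 0.92, 0.69 and 0.63, while Gata6 was at 1.46.

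The factors lower in PCBs included Hand1, Hey1 and Tbx3. Hand1, a basic helix-loop-helix factor of extraembryonic and lateral mesoderm, had a signal of 16151 in Flk1+ MPCs, 25334 in the sfPCBs, 4015 in the PCBs and 2651 in M+CMs (log2 ratio -2.66, error 0.20). It was highest in sfPCBs. Hey1, a Notch target, had 10965, 7427, 1315 and 2201 in the same order (-2.50), and Tbx3, a T-box factor of the conduction system, had 51182, 7982, 2768 and 10115 (-1.53). Outside the list, Pitx1, which marks the hindlimb and lateral mesoderm, had 126 in Flk1+ MPCs, 16978 in the sfPCBs, 249 in the PCBs and 29.5 in M+CMs (log2 ratio -6.09).

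**Figure D2:**
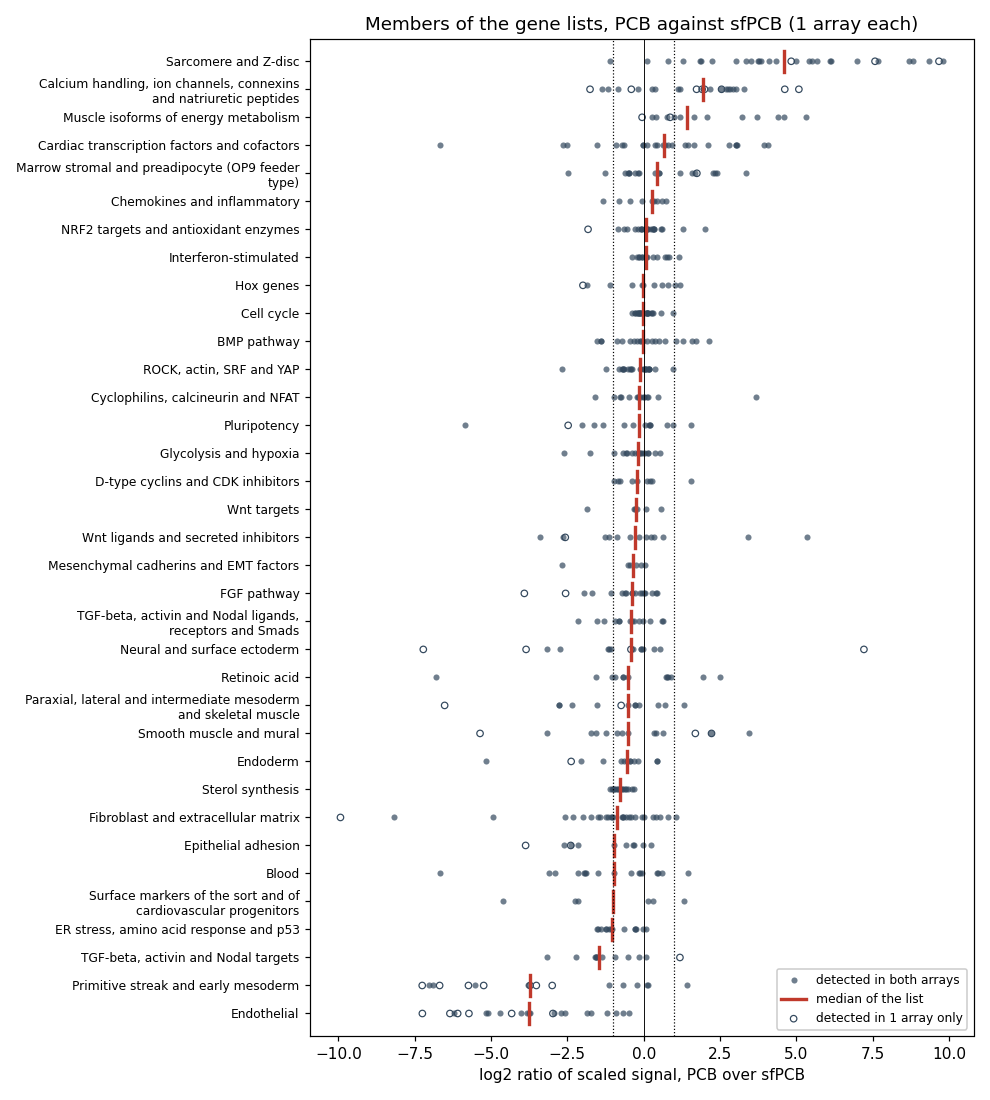
Log2 ratio of scaled signal, PCBs over sfPCBs (x axis, 1 array each), for the detected members of 35 gene lists (y axis), ordered by their median. Filled points were detected in both arrays, open points in 1, red bars are list medians and dotted lines mark 2-fold. Sarcomere genes stand at the right with a median of 4.58, and endothelial and primitive streak genes at the left with medians of -3.76 and -3.72.

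Genes of calcium handling and excitation were higher in PCBs in part. Of 24 detected, 16 were at least 2-fold higher (66.7%, against 6.10% of all genes compared) and 3 lower (12.5%, against 8.95%). The median log2 ratio was 1.95. Ryr2, the calcium release channel of the sarcoplasmic reticulum, had a signal of 227 in sfPCBs, 2224 in the PCBs and 19950 in M+CMs (log2 ratio 3.29). Atp2a2, the SERCA2 calcium pump, had 2083, 14042 and 196481 (log2 ratio 2.75). Pln, the inhibitor of that pump, was not well above background in sfPCBs and was at least 9.85-fold higher in PCBs. The pacemaker channel gene Hcn4 was likewise at least 3.69-fold higher, but over the processing alternatives its log2 ratio ran from 0.78 to 2.55. Kcnh2, the channel of the rapid delayed rectifier current, had 199 and 1419 (log2 ratio 2.83). The connexin genes Gjc1 (-0.18) and Gja1 (-0.85) stayed within 2-fold, and the natriuretic peptide genes pointed in different directions, with Nppa at 1.19 and Nppb at -1.18. Of the 16 higher members, 6 were not well above background in sfPCBs, and with normexp background correction 10 were higher.

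Muscle isoforms of energy metabolism were higher or within 2-fold. Of 14 detected members, 8 were at least 2-fold higher (57.1%, against 6.10% of all genes compared) and 0 lower (against 8.95%). The median log2 ratio was 1.42. Ppargc1a, a coactivator of mitochondrial biogenesis, had a signal of 19.1 in Flk1+ MPCs, 23.3 in the sfPCBs, 927 in the PCBs and 13534 in M+CMs (log2 ratio 5.32, error 0.30). Esrrg, a nuclear receptor that works with it, had 88.5 in sfPCBs against 2127 in PCBs (log2 ratio 4.59). Cox6a2, a muscle subunit of cytochrome oxidase, had 177 and 3774 (4.41), Fabp3, the fatty acid-binding protein of heart, had 910 and 11851 (3.70), and Cpt1b, which brings fatty acids into mitochondria, had 400 and 3737 (3.22). The creatine kinases Ckm and Ckmt2 were not well above background in either array. Of 18 genes of glycolysis and hypoxia, 16 lay within 2-fold, as did 85.0% of all genes compared. Exceptions were the glucose transporter gene Slc2a1, with 126135 in sfPCBs against 36900 in PCBs (log2 ratio -1.77), and the oxygen sensor gene Egln3 (-2.62).

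**Figure D3:**
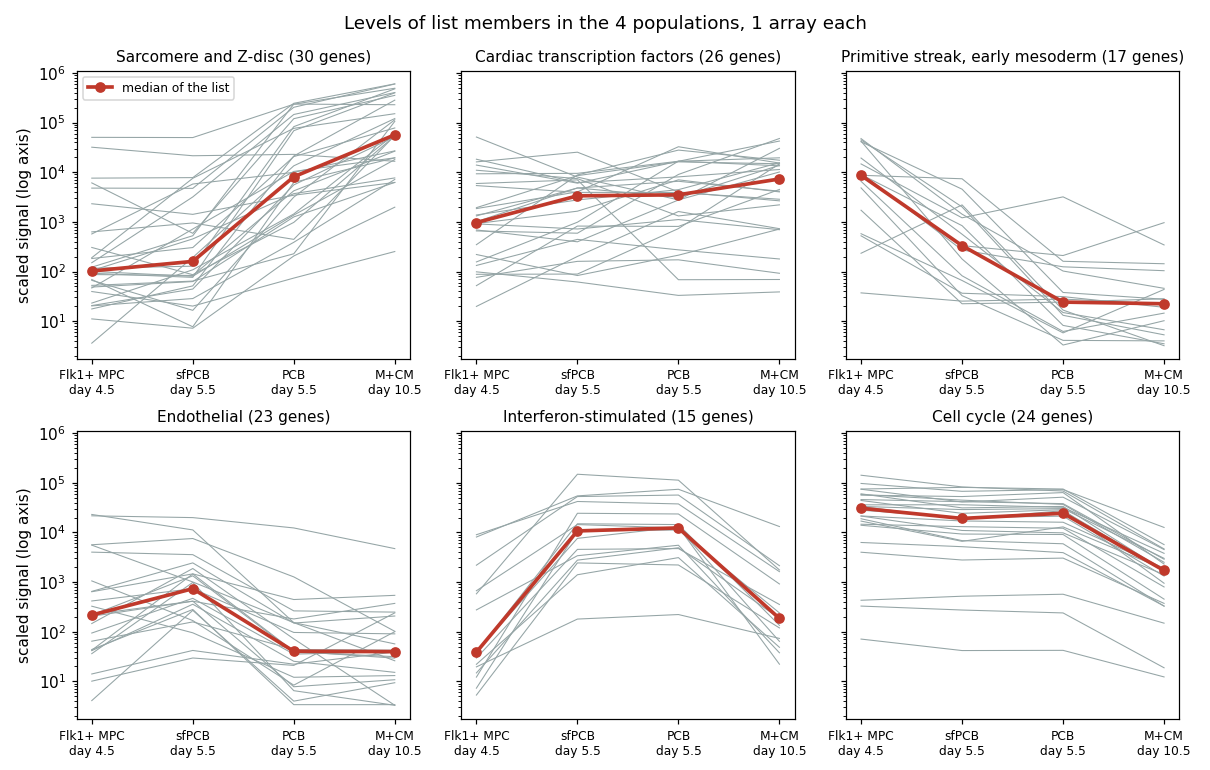
Scaled signal (y axis, log scale) of the detected members of 6 gene lists in the 4 populations (x axis, 1 array each), with gray lines for genes and the red line for the median of the list. Sarcomere genes are low in Flk1+ MPCs and sfPCBs and high in PCBs and M+CMs, endothelial genes are highest in sfPCBs by their median, interferon-stimulated genes are high in both day 5.5 arrays, and cell cycle genes are level until M+CMs.

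Most endothelial genes were lower in PCBs. Of 23 detected members, 20 were at least 2-fold lower (87% of the list, against 8.95% of all genes compared), 0 were higher, and 23 had a log2 ratio below 0, with a median of -3.76. Of the 20, 14 were detected in both arrays and 6 were at background in PCBs. With normexp, 14 were lower and the median was -2.34. Etv2, the pioneer factor of hemangiogenic mesoderm, had a signal of 23066 in Flk1+ MPCs, 11262 in the sfPCBs, 153 in the PCBs and 26 in M+CMs (log2 ratio -6.21, error 0.21). It thus was present in the precursors and in sfPCBs. Cdh5, the cadherin of endothelial junctions, had 36.2 in Flk1+ MPCs and 987 in sfPCBs, was not well above background in PCBs, and was at least 63.5-fold lower there. Tek, the angiopoietin receptor, had 42.4, 1463, 40.4 and 29.4 in the same order as Etv2 (log2 ratio -5.18, error 0.24), so it was highest in sfPCBs. Also highest there were Icam2 (1339 in sfPCBs and 39.1 in PCBs), Fli1 (1879 and 71.9) and Sox18, which was at least 18.1-fold lower in PCBs. Flt1, a VEGF receptor, had 3573 in sfPCBs against 263 in PCBs (log2 ratio -3.76). Pecam1, present on many early cell types, differed less, with 412 and 181 (-1.19), and Egfl7 (-0.69), Erg (-0.49) and Dll4 (-0.92) stayed within 2-fold.

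Blood regulators accompanied them. Of 17 detected blood genes, 8 were lower in PCBs (47.1%, against 8.95% of all genes compared) and 1 was higher (5.88%, against 6.10%). Cd34, a surface protein of hematopoietic and endothelial progenitors, had a signal of 418 in Flk1+ MPCs, 7379 in the sfPCBs, 72.8 in the PCBs and 95.8 in M+CMs (log2 ratio -6.66, error 0.21), and its other probe, at background in PCBs, was at least 5.51-fold lower there. Tal1 (-3.10), Runx1 (-2.89), Hhex (-2.14), Gata1 (-1.94) and Lyl1 (-1.92), transcription factors of early hematopoiesis, were lower. The embryonic globins stayed within 2-fold, with 2781 in sfPCBs and 2525 in PCBs for Hbb-bh1 (log2 ratio -0.14) and 308 and 465 for Hba-x (0.59). Lmo2 (-0.07) and Epor (-0.13) were near equality too. Of the erythroid genes, Klf1 was the member higher in PCBs (29.8 and 81.9, log2 ratio 1.46), at a signal close to background.

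Most genes of the primitive streak and early mesoderm were lower in PCBs than in sfPCBs. Of 17 detected, 12 were at least 2-fold lower in PCBs (70.6%, against 8.95% of all genes compared) and 1 was higher. The median log2 ratio was -3.72. Eomes, a T-box factor of the streak, had a signal of 41054 in Flk1+ MPCs, 4554 in the sfPCBs, 37.8 in the PCBs and 27.6 in M+CMs (log2 ratio -6.91, error 0.24). Evx1, a homeobox gene of the posterior streak, had 44790, 2000, 13.1 and 5.3 in the same order, and was at least 129-fold lower in PCBs than in sfPCBs. Both were lower in sfPCBs than in the precursors and lower again in PCBs. Nodal, the TGF-beta family ligand of the streak, had 8675, 7382, 161 and 143 (log2 ratio -5.52, error 0.21), so that its sfPCB signal was close to that of Flk1+ MPCs. Mesp1, the transient marker of precardiac mesoderm, had 42204 in Flk1+ MPCs, 178 in sfPCBs and a signal at background in PCBs. Tbxt (Brachyury) was at 82 in sfPCBs and at least 5.28-fold lower in PCBs, but over the processing alternatives its log2 ratio ran from -3.88 to -0.92. Cdx2, a caudal homeobox gene, behaved differently, with 233 in Flk1+ MPCs, 2195 in the sfPCBs, 16.7 in the PCBs and 3.2 in M+CMs (log2 ratio -7.04, error 0.34). Fgf8, a growth factor of the streak and the heart field, was the member higher in PCBs, with 1206 in sfPCBs against 3189 in PCBs (log2 ratio 1.40). Since 7 of the 12 lower members were at background in PCBs, the size of this group depended on the handling of dim spots, and with normexp the median was -0.92.

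Among 14 pluripotency genes detected, 5 were lower in PCBs (35.7%, against 8.95% of all genes compared) and 1 higher (7.14%, against 6.10%). The median log2 ratio was -0.15. Fgf5, a gene of the postimplantation epiblast, had a signal of 1064 in sfPCBs against 18.4 in PCBs (log2 ratio -5.85), and Sox2 had 877 and 217 (-2.02). Pou5f1 (Oct4) had 897 in Flk1+ MPCs and 71.6 in sfPCBs and was at least 4.61-fold lower in PCBs. Its log2 ratio ran from -2.63 to -0.78 over the processing alternatives, so it did not always pass 2-fold. Klf2 was higher (4549 and 13336, log2 ratio 1.55). Probes of Nanog disagreed in direction (0.77 and -1.21), and those of Tdgf1, the Nodal coreceptor, gave 0.96, 4.76 and 4.79. Lin28a, an RNA-binding protein of undifferentiated cells, was level, with 20061 in sfPCBs and 20840 in PCBs.

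Surface markers gave a mixed picture. The paper defines PCBs as PDGFRα+Flk1− cells. Levels of Pdgfra and Kdr are therefore read against that definition and are no finding about CsAYTE. Pdgfra, for which the cardioblasts are named, had a signal of 7237 in Flk1+ MPCs, 3647 in the sfPCBs, 9136 in the PCBs and 918 in M+CMs (log2 ratio 1.32, error 0.20). It was thus detected in both day 5.5 arrays and higher in PCBs. Kdr, the gene of Flk1, had 2 probes that disagreed, of which the brighter had 11263, 6661, 7272 and 7499 in the same order (log2 ratio 0.13) and the other had 54864, 4559, 768 and 2126 (log2 ratio -2.57). Only the second probe separated PCBs from sfPCBs, and absence of Flk1 RNA was not seen with either. Cxcr4 had 538 in sfPCBs against 22.1 in PCBs (log2 ratio -4.61), Pdgfrb had 11066 and 2348 (-2.24), Kit had 2005 and 456 (-2.14), and Alcam had 1592 and 1985 (0.32).

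Fibroblast and matrix genes tended to be lower in PCBs, with 14 of 28 detected at least 2-fold lower (50%, against 8.95% of all genes compared). In this list 1 was higher, and the median log2 ratio was -0.87. Postn (periostin), a matricellular protein of mesenchyme and cardiac cushions, had a signal of 10.2 in Flk1+ MPCs, 12884 in the sfPCBs, 13.2 in the PCBs and 46.6 in M+CMs, and was at least 829-fold lower in PCBs than in sfPCBs, where it was bright, with a log2 ratio of -7.14 under normexp. Lum, the proteoglycan lumican, had 3.4, 8782, 30.2 and 104 in the same order (log2 ratio -8.18, error 0.26). These were the largest differences toward sfPCBs. Dcn (decorin) had 3794 in sfPCBs against 124 in PCBs (log2 ratio -4.94), Col3a1 had 15636 and 3120 (-2.33), and Tnc had 357 and 59.2 (-2.59). Other matrix genes differed less or in the opposite direction. Col1a1 had 58341 and 28386 (-1.04), Col1a2 had 175056 and 109298 (-0.68), Fn1 (fibronectin) had 162503 and 161970, and Col6a2 had 5064 and 10483 (1.05).

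Stromal, interferon and chemokine genes were high in both day 5.5 arrays. All 15 interferon-stimulated genes listed were detected, and 14 lay within 2-fold, as did 85.0% of all genes compared. The summed signal of the 15 was 385429 in sfPCBs and 376836 in PCBs, against 21008 in Flk1+ MPCs and 20882 in M+CMs. Isg15, for example, had 580 in Flk1+ MPCs, 148986 in the sfPCBs, 113168 in the PCBs and 1756 in M+CMs (log2 ratio -0.40). Ccl7, a chemokine of stromal cells, had 4.7, 13730, 9784 and 9.1 in the same order (log2 ratio -0.49). A list of marrow stromal and preadipocyte genes, of the type of OP9 feeder cells, had 20 of 20 members detected. In PCBs 8 of them were higher (40%, against 6.10% of all genes compared) and 2 lower (10%, against 8.95%). The median log2 ratio of this list was 0.44. Its summed signals were 105276 in sfPCBs, 103401 in PCBs and 22865 in Flk1+ MPCs. The chemokine and inflammatory list summed to 38008 in sfPCBs and 42274 in PCBs. Il1b and Ccl20 were at background in both. The 8 stromal genes higher in PCBs included the adipocyte genes Adipoq (24.9 and 254, log2 ratio 3.35), Cebpa (348 and 1679, 2.27), Cd36 (106 and 554, 2.38) and Fabp4 (7958 and 23663, 1.57), and the cytokine gene Il6 (643 and 2038, 1.66). Mgp (matrix Gla protein) was lower, with 7684 and 1370 (-2.49), and probes of Cxcl12 gave -1.26 and 0.21. The summed signals of the interferon and stromal lists thus differed little between the day 5.5 arrays, while that of the matrix list was 1121925 in sfPCBs and 759076 in PCBs. Bright probes weigh most in these sums, so the near equality of the stromal sums does not show that its members were level. The part of such cells in the matrix and adipocyte differences was not tested.

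Smooth muscle genes were divided. Of 15 detected, 4 were higher (26.7%, against 6.10% of all genes compared) and 5 lower (33.3%, against 8.95%). Cnn1 (calponin), an actin-binding protein shared by smooth muscle and early cardiomyocytes, had a signal of 3990 in Flk1+ MPCs, 2501 in the sfPCBs, 27099 in the PCBs and 40278 in M+CMs (log2 ratio 3.44, error 0.20). In contrast, the mural genes Rgs5 (9110 in sfPCBs and 1014 in PCBs, log2 ratio -3.17), Notch3 (-1.72) and Heyl (at least 29.3-fold lower) were lower in PCBs. Acta2 (0.62) and Tagln (-0.87), which are also active in early cardiomyocytes, stayed within 2-fold.

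For the pathway that EW7197 inhibits, 12 TGF-beta, activin and Nodal target genes were detected. Of them, 7 were at least 2-fold lower in PCBs (58.3%, against 8.95% of all genes compared) and 1 was higher. The median log2 ratio was -1.45. Tgfbi, a matrix protein named for its induction by TGF-beta, had a signal of 3407 in Flk1+ MPCs, 100726 in the sfPCBs, 21486 in the PCBs and 15063 in M+CMs (log2 ratio -2.23, error 0.20). It was higher in sfPCBs than in the other arrays. The feedback inhibitors Smad7 (9168 in sfPCBs and 3145 in PCBs), Skil (4070 and 1357) and Pmepa1 (2469 and 965) had log2 ratios of -1.54, -1.58 and -1.36, and Ccn2, connective tissue growth factor, had 22270 and 7609 (-1.55). The Nodal antagonist Lefty2 had 865 and 95.7 (-3.18). Ltbp1 and Ltbp2, the latent TGF-beta binding proteins, were level (-0.14 and 0.07), and Bambi, the member counted as higher, was near background in both arrays. Of 14 ligands, receptors and Smads, 3 were lower (21.4%, against 8.95% of all genes compared) and 0 higher. The 3 were Tgfb1 (1115 and 449, log2 ratio -1.31), Inhba (2150 and 747, -1.53) and the coreceptor gene Tgfbr3 (8175 and 1853, -2.14). Tgfbr1, which encodes ALK5 itself, was at 6589 in sfPCBs and 7637 in PCBs (0.21).

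**Figure D4:**
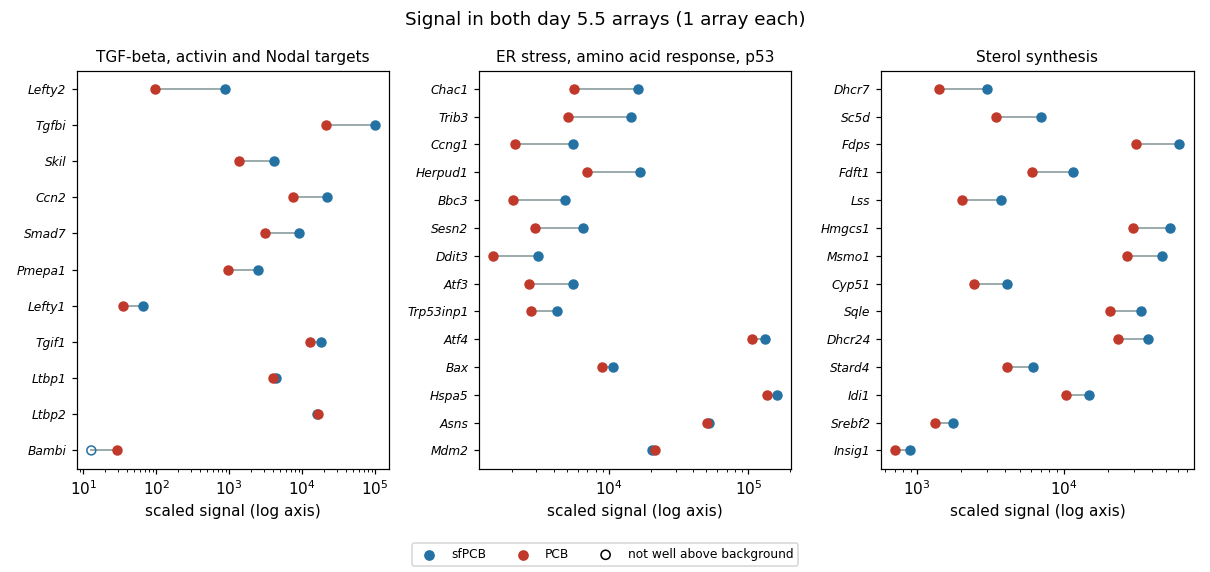
Scaled signal (x axis, log scale) of genes of 3 lists in sfPCBs (blue) and PCBs (red), 1 array each, with open circles for signals not well above background. Of the TGF-beta target genes drawn, 6 of 11 are at least 2-fold lower in PCBs, of the stress genes 8 of 14, and all 14 sterol genes drawn lie to the left in PCBs, 2 of them by at least 2-fold.

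BMP pathway genes, which act beside TGF-beta and promote cardiac fate, were balanced by their median log2 ratio of -0.01. Of 21, 5 were higher (23.8%, against 6.10% of all genes compared) and 3 lower (14.3%, against 8.95%). Bmp7 had a signal of 1870 in sfPCBs against 8144 in PCBs (log2 ratio 2.12). The Id genes, direct BMP targets that block basic helix-loop-helix factors, had log2 ratios of 0.70 (Id1), 1.71 (Id2), 0.36 (Id3) and 1.58 (Id4). All 4 were above 0, and 2 of them passed 2-fold. Msx1, another BMP target, was lower (3465 and 1326, -1.39). Bmp4 had 58732 and 63449 (0.11), and its other probe was dim in sfPCBs and at background in PCBs.

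Among Wnt ligands and secreted inhibitors, 2 of 14 were higher in PCBs (14.3%, against 6.10% of all genes compared) and 5 lower (35.7%, against 8.95%). Sfrp5, a secreted Wnt inhibitor of the cardiac inflow region, had a signal of 288 in Flk1+ MPCs, 188 in the sfPCBs, 7646 in the PCBs and 1683 in M+CMs (log2 ratio 5.34, error 0.21). Wnt2, a ligand of the second heart field, had 287, 202, 2151 and 492 (log2 ratio 3.42, error 0.21). Both peaked in PCBs. Wnt4 had 3144 in sfPCBs and 298 in PCBs (-3.40), the Wnt potentiator Rspo3 had 18388 and 2958 (-2.64), and Dkk1 had 2552 and 1160 (-1.14). Of 6 Wnt target genes, 5 stayed within 2-fold (against 85.0% of all genes compared), Axin2 among them (0.08), and Lgr5 was lower (-1.87). Of this list of FGF pathway genes, 5 of 18 were lower (27.8%, against 8.95% of all genes compared) and 0 higher. Fgf8, counted with the early mesoderm, was higher. The lower members included Etv4 (-1.69) and Fgf15 (at least 8.65-fold lower), while Dusp6 (0.28) and Spry1 (0.05) were near equality.

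In retinoic acid metabolism, Cyp26a1, which degrades retinoic acid, had a signal of 64999 in Flk1+ MPCs, 4658 in the sfPCBs, 42.1 in the PCBs and 7.9 in M+CMs (log2 ratio -6.79, error 0.24). It was thus lower in sfPCBs than in the precursors and lower again in PCBs. Cyp26b1 was lower as well (1762 in sfPCBs and 594 in PCBs, -1.57), whereas the receptor gene Rarb, itself a target of retinoic acid, had 400 and 2254 (2.49) and Crabp1, a cytoplasmic binding protein, had 465 and 1802 (1.96). The synthetic enzyme gene Aldh1a2 was at 57.1 and 35.8 (-0.67). Hox genes were balanced, with 2 of 11 higher (18.2%, against 6.10% of all genes compared) and 3 lower (27.3%, against 8.95%).

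Genes next to the other modulators of CsAYTE lay within 2-fold about as often as all genes compared (85.0%). Of 24 genes of ROCK, actin, SRF and YAP, 22 stayed within 2-fold, including the kinase genes Rock1 (0.19) and Rock2 (-0.66), and 2 were lower, namely Ankrd1 (8549 in sfPCBs and 1339 in PCBs, log2 ratio -2.67), a target of YAP and a titin-associated protein, and Fhl2 (-1.23). Of 24 NRF2 targets and antioxidant enzymes, 21 stayed within 2-fold, and the metallothionein genes Mt1 (21820 and 53131, 1.28) and Mt2 (4424 and 17804, 2.01) were the 2 higher members. Of 15 cyclophilin, calcineurin and NFAT genes, 13 stayed within 2-fold, among them Ppif, the cyclophilin of the mitochondrial pore (-0.21), and the calcineurin feedback gene Rcan1 (-0.76). Rcan2 was higher, with 68.8 and 883 (3.68), and Nfatc2 differed between its probes (-1.61 and 0.53).

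Of the cell cycle genes, 24 of 24 members were within 2-fold, against 85.0% of all genes compared, with a median log2 ratio of -0.01. Mki67, a marker of cycling cells, had a signal of 36048 in Flk1+ MPCs, 36158 in the sfPCBs, 32058 in the PCBs and 3800 in M+CMs (log2 ratio -0.17). The largest value was that of Ccne1 (0.97), whose other probe gave 1.13. Ccnd2, a D-type cyclin of the embryonic heart, was higher in PCBs (8351 and 24590, log2 ratio 1.56), whereas Ccnd1 (-0.83) and the inhibitor gene Cdkn1a (-0.98) lay below 0 within 2-fold. The other Cdkn1a probe gave -1.44.

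Stress genes were in part lower in PCBs, and sterol genes lay mostly within 2-fold. Of 14 genes of endoplasmic reticulum stress, the amino acid response and p53, 8 were at least 2-fold lower (57.1%, against 8.95% of all genes compared). Among the 14, 0 were higher, and the median log2 ratio was -1.05. Chac1 had a signal of 1961 in Flk1+ MPCs, 16234 in the sfPCBs, 5584 in the PCBs and 6914 in M+CMs (log2 ratio -1.54), and Trib3 had 3632, 14347, 5088 and 7482 (-1.50). Both are targets of ATF4 and CHOP, and were highest in sfPCBs. Ddit3 (-1.06), which encodes CHOP, and Herpud1 (-1.25) were lower too, while Asns (-0.03) and Hspa5 (-0.26) were near equality. Of the p53 targets, Ccng1 (-1.40) and Bbc3 (-1.24) were lower and Mdm2 was level (0.07). Of 17 sterol synthesis genes, 17 had a log2 ratio below 0, between -1.10 for Dhcr7 and -0.33 for Insig1, with a median of -0.76. Of them 3 passed 2-fold (17.6%, against 8.95% of all genes compared, and 2 to 6 over the processing alternatives). Dhcr7, the last enzyme of cholesterol synthesis, had 3018 in sfPCBs and 1412 in PCBs, and Hmgcs1, an early enzyme of the pathway, had 53053 and 29887 (-0.83).

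Among markers of other lineages, more were lower than higher in PCBs, by a wider margin than among all genes compared (8.95% lower and 6.10% higher). Of 13 endoderm genes 4 were lower (30.8%) and 0 higher. Of 15 neural and surface ectoderm genes 7 were lower (46.7%) and 1 higher. Of 11 epithelial adhesion genes 5 were lower (45.5%) and 0 higher, and of 13 genes of other mesoderm and skeletal muscle 5 were lower (38.5%) and 1 higher. Among the lower members, 1 endoderm, 2 neural, 2 epithelial and 1 other mesoderm gene were detected in only 1 array. Sox3, a neural SOX factor, had a signal of 2293 in sfPCBs and was at least 147-fold lower in PCBs. Trh, thyrotropin-releasing hormone, had 9002 and 250 (log2 ratio -5.17), and Foxf1, of lateral and splanchnic mesoderm, had 10585 and 1560 (-2.76). The keratin genes Krt8 (34773 and 7761, -2.16) and Krt18 (165442 and 31881, -2.38) and Cdh1 (at least 11.1-fold lower) were lower, as was the mesenchymal cadherin gene Cdh11 (4134 and 644, -2.68). Pax6 was the neural gene higher in PCBs, at background in sfPCBs and at 530 in PCBs (at least 35.0-fold). The skeletal muscle factors Myod1, Myog and Myf5 were not well above background in either array.

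The arrays of Flk1+ MPCs and M+CMs, which did not enter the ratio, were set beside it. Of the 378 genes at least 4-fold higher in PCBs, 276 (73%) had M+CM signals that exceeded those of Flk1+ MPCs at least 2-fold, against 22% of all genes compared. Of the 543 genes at least 4-fold lower in PCBs, 303 (55.8%) had M+CM signals at least 2-fold below those of Flk1+ MPCs, against 22.4%. Median signals of the 378 genes were 41.7 in Flk1+ MPCs, 49.8 in the sfPCBs, 511.9 in the PCBs and 1208.4 in M+CMs. For the 543 genes they were 135.0, 419.9, 37.5 and 39.8, so that the median was highest in sfPCBs. The median of all genes compared was 954.5 in Flk1+ MPCs, so both sets were dim there. Only 1 of the day 5.5 arrays detected 149 of the 378 genes and 207 of the 543. How far dim signals enter the shares above was not tested. M+CMs also stem from CsAYTE-induced cells, as stated at the start. Across the 14883 genes detected in all 4 arrays, the log2 ratio of PCBs over sfPCBs and that of M+CMs over Flk1+ MPCs had a Pearson coefficient of 0.33 and a Spearman coefficient of 0.21. These are correlations across genes, which are not independent replicates, and the arrays share a slide, probes and their brightness.

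**Figure D5:**
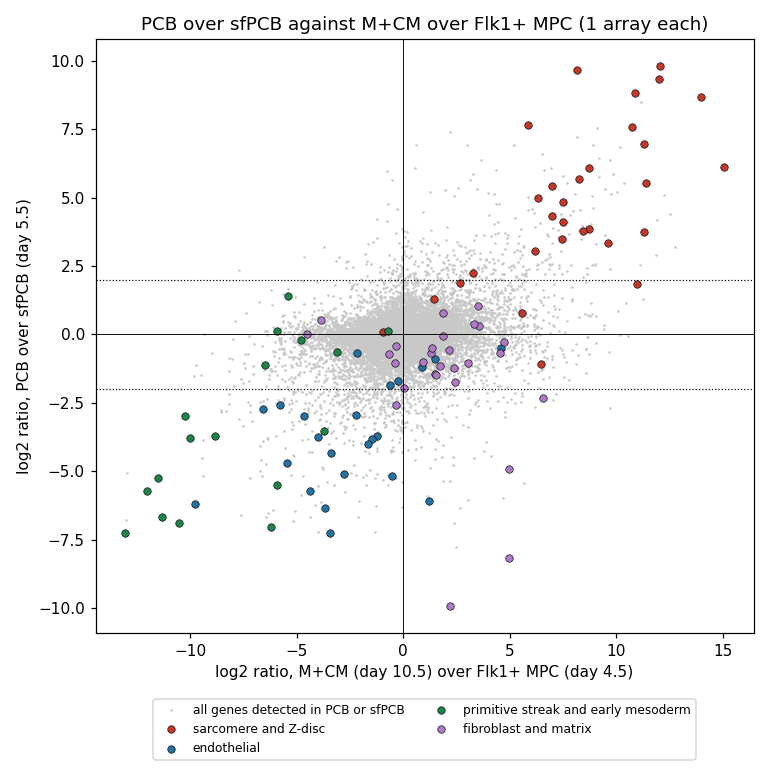
Log2 ratio of M+CMs over Flk1+ MPCs (x axis) and of PCBs over sfPCBs (y axis) for the 16811 genes compared (gray) and for members of 4 lists (colour), 1 array per population, with dotted lines at a 4-fold difference on the y axis. Sarcomere genes lie mostly at the upper right and early mesoderm genes at the lower left, and across all 16811 genes r was 0.36.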

How the data were processed

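RNA of 4 mouse cell populations had been hybridized, 1 array per population, and the labels give no replicates. The authors deposited the scanner output of Agilent's Feature Extraction 11.5.1.1 for each array, whose header names the build mm9. Its processed intensity per spot is background-subtracted on a linear scale and not normalized between arrays, and, per the file headers, each spot carries an intensity error and other values, the flags for background, outliers and saturation. The deposited value table of the series holds the log2 of the same intensity, unnormalized, and served as an alternative. No raw reads or depth exist for arrays, and their number limits the precision.

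Left out were control spots and those with a flag for non-uniformity, for a population outlier or set by hand (87 in sfPCBs and 126 in PCBs). There were 0 saturated spots. Each array was scaled to the mean 75th percentile (factors 0.867 for sfPCBs and 0.964 for PCBs), and repeated probes were averaged in log2. A probe was detected when at least 0.5 of its spots were well above background. Probes were named through their RefSeq accessions (GRCm38.p6 table), and of several probes of a gene the brightest over the 4 arrays was used. The repeated spots of a probe had a median SD of 0.096 (sfPCBs) and 0.056 (PCBs) in log2. Genes named were the 15 largest ratios each way among genes with curated identifiers detected in both arrays, the 10 largest bounds each way, and any member of the 35 lists. The members and lists were chosen with earlier results of these data known. Counting was tested on simulated data. Python 3.11.15, pandas 2.3.3, R 4.3.3 and limma 3.58.1 (normexp only) were used. Values of some list members are not reported here, although the counts and medians of the lists include them.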

Additional observations from a re-analysis of the deposited data

Results flagged for a closer look

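Probes that could be matched to no gene symbol entered none of the comparisons above. Of 11921 such probes, 8009 were detected in PCBs or sfPCBs, and among these 159 (1.99%) were at least 4-fold higher in PCBs and 97 (1.21%) at least 4-fold lower. They were noted because they carry a signal outside the named genes. With 1 array per population, no rule on samples that stand apart within a group could be applied.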

How the results depend on the processing

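The counts of 1026 genes higher and 1504 lower at 2-fold, and of 378 and 543 at 4-fold, stayed within 1.5 times under quantile normalization, no scaling, scaling to the median of probes detected on all arrays, no detection filter, the mean of all probes of a gene, leaving out saturated spots and the deposited value table. Normexp background correction was run on the median spot and background intensities and included an added offset of 50. It gave 557 and 882 at 2-fold and 194 and 237 at 4-fold. An offset of 50 on the scaled signal, without normexp, gave 553, 937, 203 and 271 in the same order. Both raise signals near the background by their construction. Since each adds 50, they are not independent checks. Requiring detection in both arrays gave 229 and 336 at 4-fold. Without scaling, the median log2 ratio of all genes was -0.15, and 31.9% of the genes at 2-fold were higher in PCBs, against 40.6% with scaling. Among the 596 named genes and 10 alternatives, Zic1 was the only gene past 2-fold whose sign reversed, from -1.13 to 0.53 with the mean of its probes, which disagreed. Of the 35 list medians, 6 that lay near 0 took both signs over the alternatives, namely those of pluripotency (-0.32 to 0.16), Hox (-0.16 to 0.26), BMP (-0.16 to 0.05), antioxidant (-0.08 to 0.09), interferon (-0.09 to 0.07) and cell cycle genes (-0.16 to 0.04). Normexp moved 8 list medians, and the sarcomere median was then 3.60. Of the 596 named genes, normexp moved 219 and the offset 170. Under normexp the log2 ratio was -4.79 for Cdx2, -6.61 for Lum and -5.33 for Cyp26a1. No paired analysis was possible because there was 1 array per population and the labels carry no replicate numbers. Leaving out a replicate was not possible for the same reason. Genes near the background had no firm ratio, and no setting supplies the missing spread between cultures.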

Other observations

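Genes whose signal was highest in 1 of the day 5.5 arrays and low in the other 3 were listed by their margin over the next array, and those named here were chosen after their values were seen. Cck, the gut and brain peptide cholecystokinin, had a signal of 208 in Flk1+ MPCs, 421 in the sfPCBs, 51140 in the PCBs and 319 in M+CMs. It was followed among PCB-high genes by Olig3, a neural progenitor factor, with 532 in PCBs and background in the other arrays. Klk1b5 and Klk1b26, kallikreins of closely similar sequence, had 543 and 292 in PCBs. Pyy, the gut peptide YY, had 66.4 in sfPCBs and 1798 in PCBs. Fgf6, a growth factor of muscle, was at background in sfPCBs, and had 1374 in the PCBs and 180 in M+CMs. The adipocyte lipid droplet gene Plin1 had 163 in PCBs and was at background in sfPCBs.

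Among genes highest in sfPCBs, Postn led, followed by Megf10, an engulfment receptor, with 6575 in sfPCBs, 30.2 in the PCBs and 35.3 in M+CMs. Lum came next, then Pitx1, Cldn11 (2898 in sfPCBs and 19.3 in PCBs), Eya2 (1861 and 23.9) and Tdo2 (4888 and 109). Tdo2 encodes tryptophan dioxygenase and Cldn11 a tight junction claudin. Cd200, a surface glycoprotein, had 1444 in sfPCBs and 41.3 in PCBs.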
